A study of Mus musculus with 8 samples.

Results

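The 9 genes described here encode enzymes that make or use asparagine, aspartate, alanine, proline, glutamine and glutamate, together with Pck2, the mitochondrial enzyme that turns oxaloacetate into phosphoenolpyruvate. They were taken by symbol from a table of 41730 genes and other features: Asns, Pck2, Gpt2, Aldh18a1, Pycr1, Got1, Got2, Glul and Glud1. All 9 were in the table, none with a repeated symbol, and all 9 passed the filter on low counts.

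RNA was sequenced from mouse OT-I CD8+ T cells, which carry a transgenic receptor for the ovalbumin peptide SIINFEKL. In every culture the T cells had been grown with bone marrow-derived dendritic cells (BMDCs) loaded with that peptide, and were then sorted by flow cytometry. The control group (4 libraries, replicates 1 to 4) received the solvent DMSO, and the other group (4 libraries, replicates 5 to 8) received RGX-104 at 2 µM. This synthetic compound activates the liver X receptors (LXR), which sense oxidised forms of cholesterol in the nucleus. Neither the age or number of mice nor the length of culture is given in the sources used here. The libraries held 13144704 to 15966972 counts each. Whether they stand for separate cultures or mice is not stated in the labels, so p-values measure only the spread between these libraries, which may be technical.

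These enzymes connect the tricarboxylic acid cycle to the non-essential amino acids. Transaminases move amino groups between glutamate and the keto acids, glutamine supplies nitrogen for asparagine and nucleotides, and proline is built from glutamate. When amino acids run short or unfolded proteins accumulate, phosphorylation of the translation factor eIF2 raises the transcription factor ATF4, which with C/EBP partners induces Asns and several other enzymes of this kind. Activated T cells draw heavily on these pathways while they grow and divide.

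The genes divided into those that were lower with RGX-104 and those that stayed within a few percent of control. Asns, Pck2, Gpt2, Aldh18a1 and Pycr1 fell, to between 25.2 and 71.4% of the control level. The fitted levels of Got1, Got2, Glul and Glud1 were 95.8 to 97.2% of control, and none of these passed the test. Of the 9 genes, 5 fell and 0 rose (edgeR's quasi-likelihood test, Benjamini-Hochberg adjusted p under 0.05 over 12162 genes; none rose at an unadjusted p under 0.05 either, and DESeq2 and limma-voom also called 5 lower and 0 higher). Among all genes tested, 1.78% were lower and 0.888% higher by the same rule. The median log2 fold change was -0.49 over the 9 genes and 0.00 over all genes tested.

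**Figure D1:**
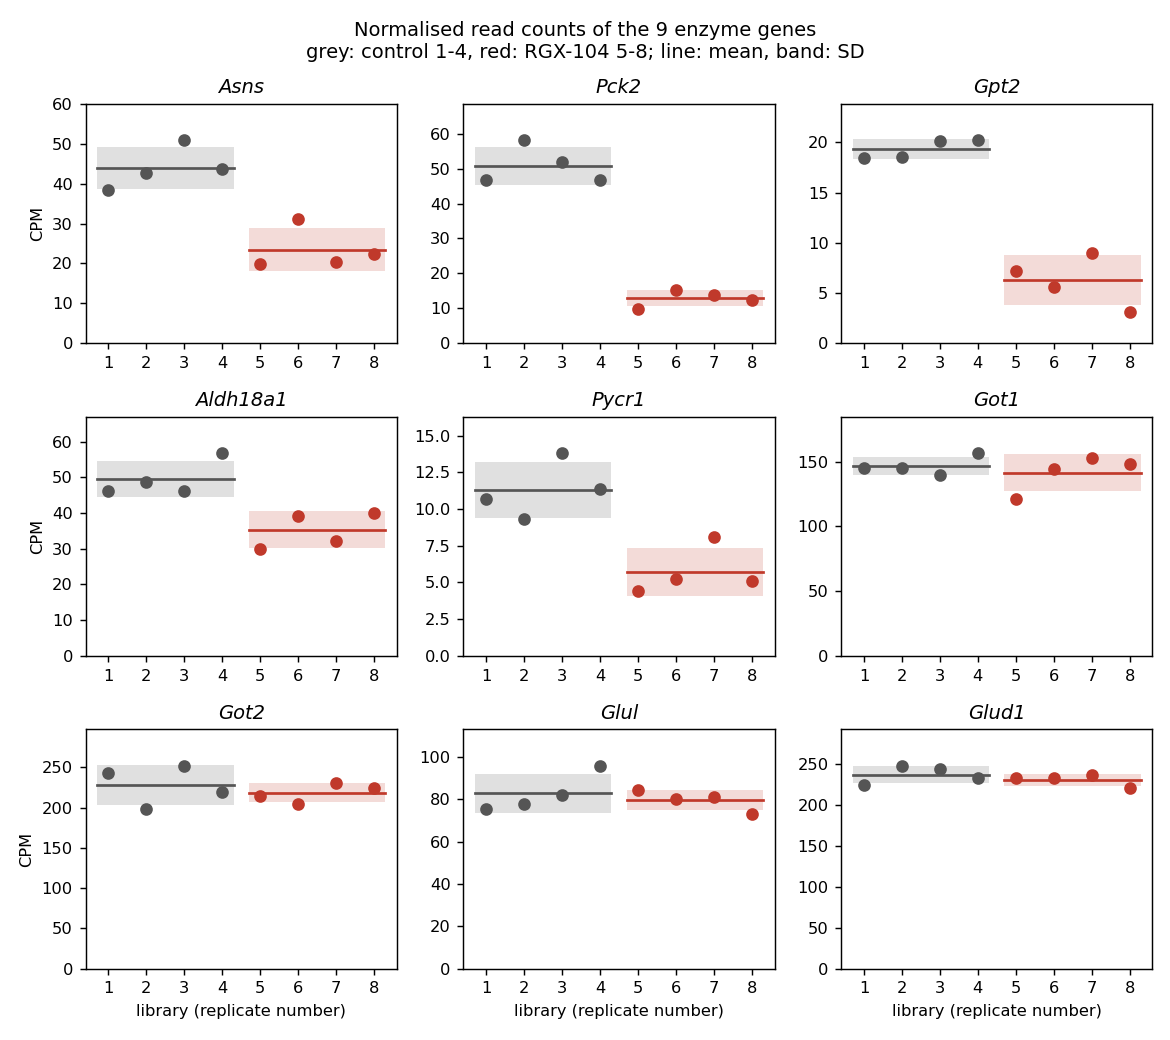
Normalised read counts (CPM, y axis from 0) of each gene in each library (x axis, replicate number), with control in grey and RGX-104 in red; lines are group means and bands are 1 SD. The groups do not overlap for Asns, Pck2, Gpt2, Aldh18a1 and Pycr1, and overlap for Got1, Got2, Glul and Glud1.

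Because Asns is the textbook target of ATF4, the promoters of the 9 genes were searched for TGATGNAA, the core of the C/EBP-ATF response element, on both strands (reverse complement TTNCATCA). The windows ran from 250 bases before to 50 bases after a RefSeq transcript start (GRCm38.p6), and all 9 genes had one. Matches were present in 4 of the 9: Asns, Pck2 and Pycr1, which fell, and Got1, which was not called. Gpt2 and Aldh18a1, which also fell, had none in this window, nor did Got2, Glul and Glud1. Over all 32851 windows of 300 bases in the table, 3.97% held a match, and of 9365 tested genes with a window 2.77% did. The matches are shown in the gene's own direction with the 8 matching bases in capitals. For Asns a shorter stretch is given, since it lies within an exon of a longer GENCODE transcript.
Asns (chr6:7693214-7693243, minus strand): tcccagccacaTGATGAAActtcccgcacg
Pycr1 (chr11:120643818-120643877, minus strand): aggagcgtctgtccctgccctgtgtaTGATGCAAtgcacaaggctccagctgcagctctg
Pck2 (chr14:55540137-55540196, plus strand): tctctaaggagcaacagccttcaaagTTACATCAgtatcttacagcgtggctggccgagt
Got1 (chr19:43524674-43524733, minus strand): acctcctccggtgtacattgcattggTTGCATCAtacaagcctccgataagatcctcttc

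Counted from the transcript start of each window, the first base of the match lay 23 bases before it in Asns, 103 in Pycr1, 103 in Pck2 and 102 in Got1. For Pck2 that start is base 55540266 of chromosome 14. Got1 and Pycr1 held the same 8 bases, TGATGCAA, in opposite directions, yet Pycr1 fell and Got1 was not called. Such a match is a description of the letters in the window, and binding was not measured here.

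Asns, asparagine synthetase, uses glutamine to turn aspartate into asparagine (chromosome 6, 7675165 to 7693209, minus strand). In CPM, counts scaled to the TMM-normalised size of each library, its level was 38.4, 42.7, 51.0 and 43.7 CPM in control replicates 1 to 4. In RGX-104 replicates 5 to 8 it was 19.8, 31.3, 20.3 and 22.3 CPM. Every RGX-104 library lay below every control library, with replicate 6 the highest of its group. The mean went from 44.0 ± 5.21 to 23.4 ± 5.36 CPM (SD, n = 4 per group), a log2 fold change of -0.91 ± 0.14 (SE; edgeR adjusted p = 0.000288).

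Pck2 showed the largest change of the 9. It is known from cancer cells as an ATF4 target that feeds mitochondrial oxaloacetate into phosphoenolpyruvate (chromosome 14, 55540263 to 55550020, plus strand). Control libraries held 46.8, 58.2, 51.9 and 46.7 CPM. RGX-104 libraries held 9.82, 15.2, 13.8 and 12.4 CPM, so the highest of them was still far under the lowest control library. The log2 fold change was -1.99 ± 0.13, which left 25.2% of the control level (edgeR adjusted p = 1.10e-09, n = 4 per group). By log2 fold change Pck2 ranked 21 from the lowest of 12162 genes, and by p it ranked 9. The cytosolic isoenzyme Pck1, the gluconeogenic enzyme of liver and kidney, had 0 to 4 counts per library and was not tested.

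Gpt2, the mitochondrial alanine aminotransferase, makes alanine and 2-oxoglutarate from pyruvate and glutamate (chromosome 8, 85492576 to 85528902, plus strand). It was tightly held in control, at 18.5, 18.6, 20.1 and 20.2 CPM. With RGX-104 it was at 7.23, 5.63, 8.97 and 3.12 CPM, with replicate 8 the lowest. Its log2 fold change was -1.63 ± 0.22 (edgeR adjusted p = 6.90e-05, n = 4 per group). The RGX-104 libraries differed among themselves by a coefficient of variation of 39.8%, against 10.6% from counting alone. In control those values were 4.95 and 5.81%. The cytosolic isoenzyme Gpt, best known as the serum marker ALT of liver damage, went from 3.54 ± 1.68 CPM in control to 4.12 ± 1.90 CPM (log2 fold change 0.23 ± 0.36, 95% interval spanning 0, edgeR adjusted p = 0.852).

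Both measured steps from glutamate to proline fell. Aldh18a1 encodes pyrroline-5-carboxylate synthase, the enzyme that commits glutamate to proline and ornithine (chromosome 19, 40550257 to 40588463, minus strand). It was at 46.1, 48.8, 46.2 and 56.8 CPM in control and at 29.8, 39.3, 32.2 and 40.1 CPM with RGX-104. The groups stood apart by less than for Asns or Pck2, and the log2 fold change was -0.49 ± 0.11 (edgeR adjusted p = 0.0181, n = 4 per group). Pycr1 encodes a mitochondrial pyrroline-5-carboxylate reductase, which finishes proline (chromosome 11, 120638998 to 120643748, minus strand). Its 10.7, 9.34, 13.8 and 11.4 CPM in control compared with 4.42, 5.21, 8.10 and 5.10 CPM in RGX-104 libraries. Replicate 7 came nearest to the control range. The log2 fold change of Pycr1 was -0.98 ± 0.22 (edgeR adjusted p = 0.0144, n = 4 per group).

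Leaving out 1 library ended the call for these proline genes in some cases. For Aldh18a1 the edgeR adjusted p was 0.0790 without control replicate 4, 0.0682 without RGX-104 replicate 5 and 0.0728 without RGX-104 replicate 7. For Pycr1 it was 0.0812 without control replicate 3, 0.0545 without RGX-104 replicate 6 and 0.0572 without RGX-104 replicate 8. Asns, Pck2 and Gpt2 kept an adjusted p under 0.05 without any 1 of the 8 libraries.

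The aspartate aminotransferases did not pass the test in either compartment. Got1, the cytosolic enzyme of the malate-aspartate shuttle (chromosome 19, 43499752 to 43524605, minus strand), was at 145, 145, 139 and 157 CPM in control. It was at 121, 144, 153 and 148 CPM with RGX-104, where only replicate 5 lay below the control range. Its log2 fold change was -0.05 ± 0.07, with a 95% interval from -0.20 to 0.09 (edgeR adjusted p = 0.815, n = 4 per group). Got2, its mitochondrial partner (chromosome 8, 95864133 to 95888401, minus strand), was at 243, 198, 252 and 220 CPM in control. In RGX-104 libraries it was at 215, 205, 231 and 224 CPM, all within the control range. The interval of its log2 fold change ran from -0.20 to 0.08 (-0.06 ± 0.07, edgeR adjusted p = 0.758).

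Glul, glutamine synthetase, joins ammonia to glutamate (chromosome 1, 153899929 to 153909723, plus strand). It was at 75.4, 78.0, 82.1 and 95.8 CPM in control and at 84.5, 80.2, 81.3 and 72.9 CPM with RGX-104. The libraries of the groups were interleaved, and the log2 fold change was -0.05 ± 0.08 (interval -0.23 to 0.12, edgeR adjusted p = 0.839, n = 4 per group). Glud1, glutamate dehydrogenase, which releases ammonia and 2-oxoglutarate from glutamate in mitochondria (chromosome 14, 34310727 to 34345033, plus strand), was at 224, 248, 244 and 233 CPM in control. With RGX-104 it was at 233, 233, 236 and 220 CPM. It had the narrowest interval of the 9, from -0.15 to 0.07 (log2 fold change -0.04 ± 0.05, edgeR adjusted p = 0.807). For the 4 genes not called, the intervals exclude a fall as large as that fitted for any of the 5 genes called.

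**Figure D2:**
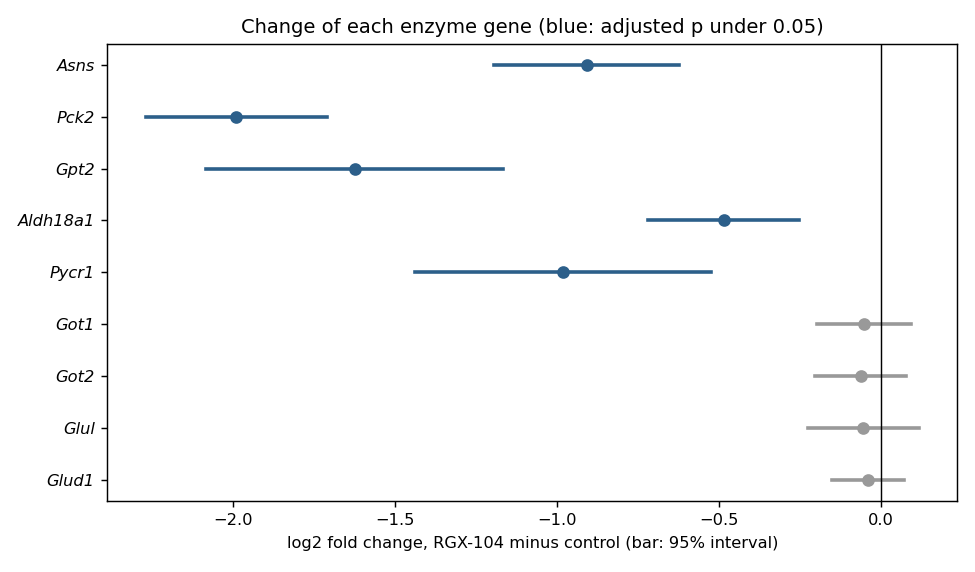
Log2 fold change (x axis, RGX-104 minus control) of each gene, with its 95% interval from edgeR's fit over 8 libraries; blue marks an adjusted p under 0.05. Intervals of the 5 lower genes lie wholly below 0, from -2.27 for the low end of Pck2 to -0.25 for the high end of Aldh18a1, and those of the other 4 span 0.

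In CPM, the groups did not overlap for 5 of the 9 genes, all lower with RGX-104, against 4.32% of all genes tested. The library with the extreme value was not the same from gene to gene. Within RGX-104, replicate 5 was the lowest for Asns, Pck2, Aldh18a1, Pycr1 and Got1, replicate 8 for Gpt2, Glul and Glud1, and replicate 6 for Got2. The highest RGX-104 library was replicate 6 for Asns and Pck2, replicate 7 for Gpt2, Pycr1, Got1, Got2 and Glud1, replicate 8 for Aldh18a1 and replicate 5 for Glul. Spread within a group exceeded counting noise for each gene in each group, except Gpt2 in control.

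Unequal change between related enzymes was examined as the log2 ratio of their counts within a library, which needs no library size. The group means were compared by an exact two-sided permutation test, whose smallest possible p with 4 against 4 is 0.0286. A family of 6 ratios was computed and p-values were adjusted over all 6, and the 4 ratios between members of the 9 are given here. None of these passed the threshold after adjustment. At the smallest possible p, a ratio could pass only if most of the 6 reached it too. Not passing is thus no evidence that 2 genes changed alike. The ratio of Gpt2 to Got2, both mitochondrial transaminases, went from -3.55 ± 0.15 to -5.22 ± 0.65 (SD, n = 4 per group), a difference of -1.67 ± 0.33 (SE; exact permutation p = 0.0286, adjusted 0.0571). Asns relative to Glul, the other amide-forming synthetase, differed by -0.87 ± 0.19 with the same exact permutation p of 0.0286 and adjusted 0.0571. For both pairs no RGX-104 library reached the control range.

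The other ratios overlapped between the groups. Aldh18a1 relative to Pycr1, the early and the late step of proline synthesis, differed by 0.51 ± 0.27 (exact permutation p = 0.114, adjusted 0.137), so these data do not show that the late step fell more. Without RGX-104 replicate 7 that difference was 0.73 and its adjusted exact permutation p was 0.0429. For Got1 relative to Got2 the group means were equal to 2 decimals, at -0.63 in each (difference 0.00 ± 0.12, exact permutation p = 1.0, adjusted 1.0).

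**Figure D3:**
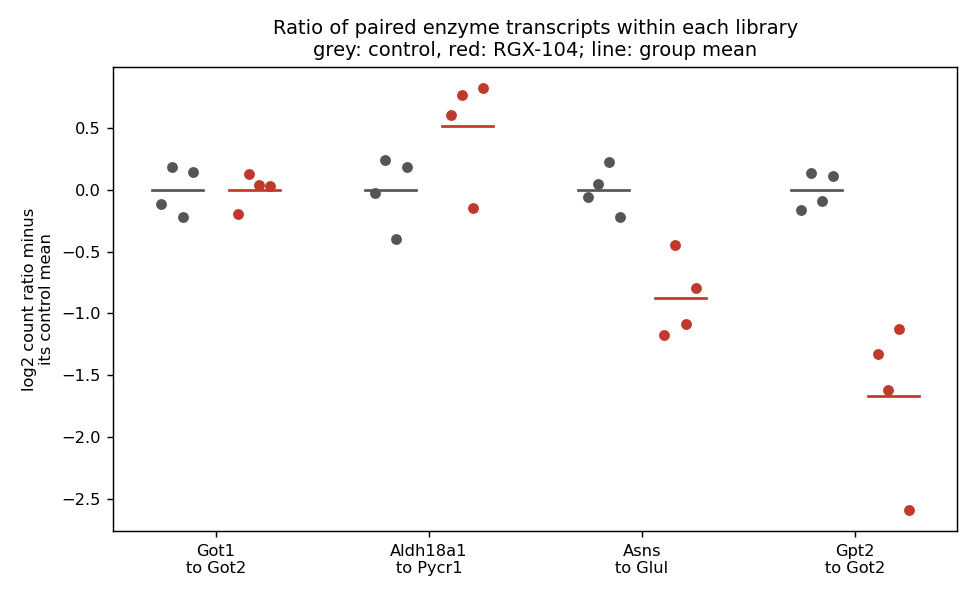
Log2 count ratio of 4 enzyme pairs in each library, minus the control mean of that pair (y axis), with control in grey, RGX-104 in red and lines at the group means. RGX-104 libraries lie below all control libraries for Asns to Glul and Gpt2 to Got2, whose adjusted exact permutation p was 0.0571.

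Other genes of the same pathways were read from a list of 60 symbols, of which 59 were in the table and 43 were tested. Of these 43, 4 fell and 0 rose by edgeR, DESeq2 and limma-voom alike (edgeR background 1.78% lower). At edgeR's unadjusted p under 0.05, 5 of the 43 were lower and 6 higher. Among all 12162 genes tested, 915 were lower and 764 higher at that unadjusted p. The median of the 43 log2 fold changes was 0.05. All 4 that fell are plasma membrane carriers or a carrier subunit, and none is an enzyme.

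Carriers accounted for 10 of the 43. Slc1a4, an exchanger of alanine, serine and cysteine, went from 24.2 ± 5.17 to 12.2 ± 2.65 CPM (log2 fold change -0.99 ± 0.18, edgeR adjusted p = 0.00163, n = 4 per group). Slc38a2, a sodium-coupled carrier of glutamine, alanine and proline, went from 440.3 ± 31.9 to 331 ± 12.6 CPM (-0.41 ± 0.06), while its relative Slc38a1 was at 378 ± 13.1 and 380.3 ± 6.74 CPM (0.01 ± 0.05). Slc3a2, the shared heavy chain of several amino acid exchangers, had a log2 fold change of -0.39 ± 0.07. Its partner Slc7a5, which imports leucine in exchange for glutamine, had one of -0.28 ± 0.07 (edgeR adjusted p = 0.0271). The call for Slc7a5 was lost without any of 5 single libraries (control replicates 1, 3 and 4, RGX-104 replicates 6 and 8), with adjusted p of 0.0640 to 0.131. The glutamine carrier Slc1a5 was at 243 ± 17.9 and 217 ± 16.4 CPM (edgeR adjusted p = 0.245).

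Enzymes that use glutamine gave no call among 12 tested by edgeR, DESeq2 or limma-voom. By edgeR 3 were higher at an unadjusted p under 0.05, as were 764 of all 12162 genes tested. Cad, which starts pyrimidine synthesis, was at 213 ± 11.9 and 235 ± 9.67 CPM (log2 fold change 0.14 ± 0.06, edgeR adjusted p = 0.236). In the proline and ornithine group, none of 5 tested genes was called by these tools, with 1 higher at an unadjusted p under 0.05. Oat, which links ornithine to proline, was at 60.6 ± 4.03 and 66.6 ± 10.1 CPM.

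Of 10 tested genes of aspartate and asparagine metabolism, none was called by the 3 tools. By edgeR 1 was higher at an unadjusted p under 0.05 (764 of 12162 over all genes tested). Mdh2, the mitochondrial malate dehydrogenase that works beside Got2 in the shuttle, was at 589 ± 32.9 and 603 ± 35.1 CPM. Adss, which spends aspartate in purine synthesis, was at 211 ± 11.6 and 214 ± 7.90 CPM. Of 5 tested genes around phosphoenolpyruvate and the refilling of the cycle, none was called by the 3 tools or had an unadjusted p under 0.05. Among these 5, Eno1 has a repeated symbol and was listed at 3.53 ± 2.26 and 2.09 ± 0.65 CPM. Its level was therefore not read as that of the gene. Pcx and Me1 averaged only 25.0 and 15.75 counts per library. Pkm, the pyruvate kinase that consumes the product of Pck2, was at 1089 ± 33.6 and 1062 ± 76.7 CPM, and the mitochondrial malic enzyme Me2 at 87.2 ± 5.91 and 90.7 ± 4.09 CPM. The carrier gene Slc25a11 is listed at 0 with a repeated symbol, so it was not read as absent.

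**Figure D4:**
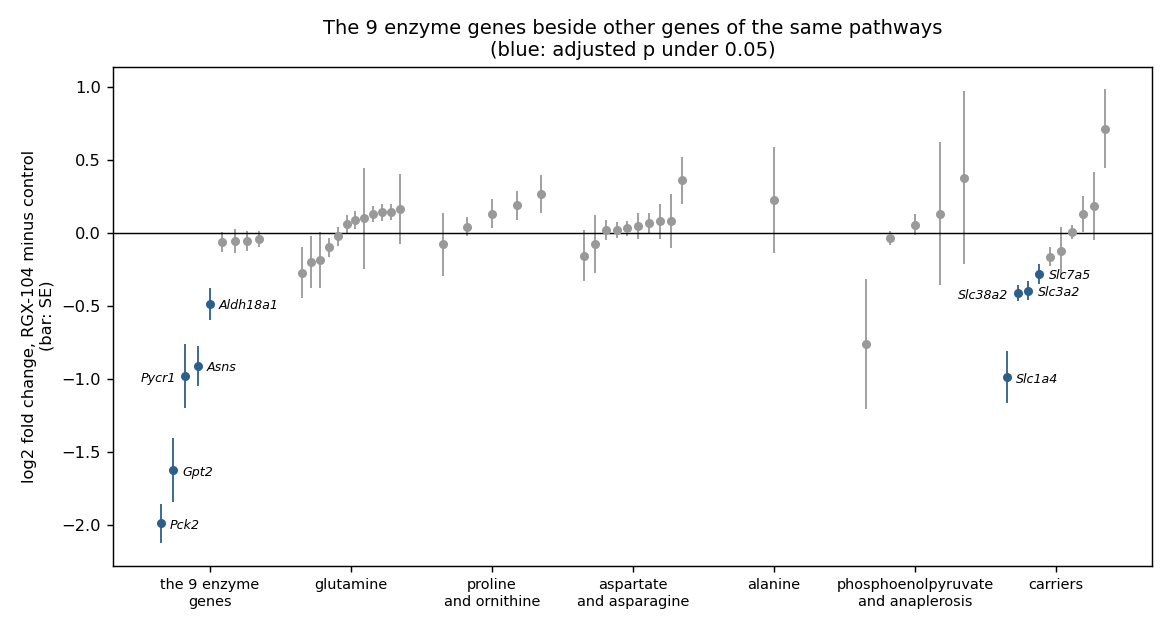
Log2 fold change (y axis, RGX-104 minus control, bars are SE) of the 9 enzyme genes and of 43 tested genes of the same pathways by group; blue marks an adjusted p under 0.05. Outside the 9 genes, the 4 blue points are the carrier genes Slc1a4, Slc38a2, Slc3a2 and Slc7a5.

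Regulators of the amino acid response, transcription factors and the pseudokinase Trib3, were read beside the enzymes. Of 7 such genes 6 fell and 0 rose by edgeR, against 1.78% lower among all genes tested (DESeq2 and limma-voom also 6 and 0, and none was higher at an unadjusted p under 0.05). These genes were known from earlier results of the same data, so their direction is no independent evidence. Cebpg, a C/EBP partner of ATF4 and 1 of the 6, lost its call without control replicate 3 (edgeR adjusted p = 0.0876), RGX-104 replicate 7 (0.0755) or RGX-104 replicate 8 (0.0711). Atf4 was at 793, 666, 725 and 684 CPM in control and at 467, 436, 464 and 497 CPM with RGX-104 (log2 fold change -0.62 ± 0.06). Ddit3, which encodes CHOP, had a log2 fold change of -1.97 ± 0.12, beside -1.99 for Pck2. Trib3, which feeds back on ATF4, had one of -2.84 ± 0.13. In RGX-104 replicate 6, where Asns and Pck2 were highest, Atf4 and Ddit3 were at their lowest (436 and 13.6 CPM). Replicate 7 was the highest RGX-104 library for Ddit3 and Trib3 (19.0 and 8.97 CPM), as it was for Gpt2 and Pycr1. It was also the highest for Got1, Got2 and Glud1, which were not called.

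The genes whose profile over the 8 libraries lay nearest to Pck2 were sought among 10969 tested genes that averaged 20 counts or more and had no library at 0. Likeness was the root mean square difference in log2 CPM after subtracting each gene's control mean. The nearest was Ddit3 (0.241), then Slc7a3, a carrier of arginine and lysine (0.260), Tubb3, a tubulin best known from neurons (0.315), Soat2, which esterifies cholesterol (0.359), and the glycine carrier Slc6a9 (0.368). For Asns the nearest were the unnamed gene model Gm39211 (0.146), Pink1, a kinase of damaged mitochondria (0.178), the repressor Hic1 (0.179), the glycogen synthase Gys1 (0.184) and Herpud1 of endoplasmic reticulum degradation (0.197). This measure favours genes with a change of like size and is given without a test.

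The cells carried the RNA of the labelled type. The summed level of 7 CD8 T cell markers was 1486 to 1529 CPM in control and 1783 to 1835 CPM in RGX-104, and 3 of the 7 rose by edgeR, against 0.888% of all genes tested (DESeq2 called 4 and limma-voom 3). Of the dendritic cell markers, 3 class II genes (H2-Ab1, H2-Eb1 and H2-Aa) have a repeated symbol and a listed value of 0 throughout, and Ccr7, which T cells also express, made up most of the sum of all 10 (457 to 517 CPM in control, 449 to 553 CPM in RGX-104). Without Ccr7 the sum was 20.3 to 22.7 CPM in control and 13.9 to 17.3 CPM in RGX-104. This sum was thus lower together with the 5 enzyme genes, but its members did not all move alike. Of the 6 tested, edgeR called none, nor did DESeq2 and limma-voom. At edgeR's unadjusted p under 0.05, 2 were lower, against 915 of all 12162 genes tested. The 2 were Ccl22 (group means 3.66 and 1.61 CPM, without overlap) and Fscn1 (4.23 and 2.37 CPM, with overlap). Cd74, Flt3 and Zbtb46 also had lower means with RGX-104, and their groups overlapped. Itgax had a higher mean with RGX-104 (1.11 and 1.66 CPM), also with overlap. The part of these markers in the result was not tested. The 8 macrophage and monocyte markers summed to 39.0 to 45.7 CPM in control and 44.5 to 51.4 CPM in RGX-104. Ctss made up most of this sum, at 32.0 ± 3.59 and 36.5 ± 3.95 CPM (edgeR adjusted p = 0.499). Of the 5 tested, none was called by the 3 tools. A larger sum came from 4 haemoglobin genes of red cells, at 110 to 114 CPM in control and 97.6 to 122 CPM in RGX-104. None of these 4 passed the test with any of the 3 tools, and the source of their RNA was not tested. In bulk RNA, fewer cells of a type and less RNA per cell cannot be told apart.

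The read counts behind these values ranged from 41 for Gpt2 in an RGX-104 library to 3990 for Got2 in a control library, so Gpt2 and Pycr1 carry the most counting error. Exons of Glul, Got2 and Pck2 overlap those of another gene in GENCODE M21 by 53 to 434 bases. In no case was this within the last 1000 bases of the gene's merged GENCODE exons. A 3′ library draws its reads from transcript ends. For Pck2 the GENCODE end (55551242) lies past the RefSeq end (55550020), so overlap near the RefSeq end was not checked. For Gpt2 the RefSeq end (85528902) lies past the GENCODE end (85527560), so overlap between those ends was not checked either. How reads that map to several places were handled is not given in the sources used here, so reads shared with pseudogene copies could not be separated.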

How the data were processed

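A Lexogen 3′ FWD kit, which samples transcript ends, was used on total RNA, per the labels' protocols. The table deposited by the authors holds raw, whole-number read counts for each gene. The submitters' processing notes name the build GRCm38 and the tools STAR 2.7.8a, DESeq2 1.4 and R 4.1.0. How reads were counted, with which strand setting and annotation, is not given in the sources used here.

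The test was edgeR 4.0.16 (R 4.3.3) on all 8 libraries with a term for group alone: filterByExpr by group, TMM, estimateDisp, glmQLFit and two-sided glmQLFTest. Benjamini-Hochberg adjustment ran over 12162 genes with a threshold of 0.05, and the SE is the log2 fold change divided by the square root of F. CPM are counts over the TMM-scaled library size. edgeR's fitted coefficient of variation between libraries was 14.5%. Ratios had 0.5 counts added to each count. Intervals cover the spread between libraries. The test was run on simulated data first. Alternatives were RLE or upper-quartile factors, no filter on low counts, robust estimation, DESeq2 1.42.0, limma-voom (limma 3.58.1) and leaving out each library. No column belonged to another series (0 columns).

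The 9 genes and the lists were chosen with earlier results of these data known. Named besides the 9 were called genes of the wider list, the 2 most abundant of each of its groups, Atf4, Ddit3, Trib3 and the 5 nearest profiles. Some of these genes and 2 of the 6 ratios are not reported here. Slc38a1, Slc1a5, Cebpg, Pck1, Slc25a11, Eno1 and the values of single dendritic cell markers were added after they were seen. Positions and promoters are RefSeq's (GRCm38.p6, 1-based).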

Additional observations from a re-analysis of the deposited data

How the results depend on the processing

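The count of 5 lower and 0 higher among the 9 genes held under the 6 other settings (RLE factors, upper-quartile factors, no filter on low counts, robust estimation, DESeq2, limma-voom). Leaving out 1 library gave 4 to 5 lower genes. Asns then ranged from -1.08 to -0.83 in log2 fold change, Pck2 from -2.08 to -1.88 and Gpt2 from -1.85 to -1.41. Aldh18a1 ranged from -0.55 to -0.41 and Pycr1 from -1.20 to -0.87, each losing its call in 3 of 8 cases. Of the genes not called, Got1 ranged from -0.091 to 0.02 (positive without RGX-104 replicate 5, 0.0169) and Glul from -0.10 to 0.02 (positive without control replicate 4, 0.0236). Over all genes, 108 were higher; DESeq2 gave 190 higher, and leaving out 1 library gave 57 to 93, with fewer libraries in the fit. Of the ratios, Got1 to Got2 ranged from -0.073 to 0.06, Aldh18a1 to Pycr1 from 0.38 to 0.73, Asns to Glul from -1.02 to -0.77 and Gpt2 to Got2 from -1.85 to -1.36. Without RGX-104 replicate 7, 3 of the 4 ratios given had an adjusted exact permutation p of 0.0429. The adjustment gives this value because Aldh18a1 to Pycr1 then joined the ratios at the smallest possible p. Why Aldh18a1 to Pycr1 depended on that library was not tested. Got1 to Got2 was positive without control replicate 2 (0.0620), control replicate 4 (0.0479) or RGX-104 replicate 5 (0.0647). Scaling moved the median of all genes by under 0.1 on the log2 scale. No paired analysis was run, because the labels record no pairing between the groups and the replicate numbers are not shared. Low counts limit Gpt2 and Pycr1 most.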
